A study of Mus musculus with 9 samples.

Results

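The genes described here are 10 reported targets of the microRNA miR-204-5p: Bcl2, Sirt1, Runx2, Ezr, Meis1, Sox4, Hmga2, Rab22a, Ap1s2 and Ap1s3. The literature names them as targets, but they and the further gene lists below were chosen with earlier results of these data known. The counts of called genes below therefore describe these lists and are no test of them against all tested genes. They were matched by gene symbol to a table of 24067 genes, and all 10 were found. RNA was measured in 9 libraries of 4T1, a mouse mammary carcinoma cell line, after selection of polyadenylated RNA and paired sequencing. Each library carries a title and a code, and the labels do not say what the codes stand for. By title, 3 libraries came from clone 3, which the labels give as overexpressing miR-204-5p 525-fold on average over control, 3 from clone 2, given as 150-fold, and 3 from control cells. The labels' protocols state that 4T1 cells were transfected with a plasmid for miR-204-5p or a control plasmid and that stable clones were selected with Zeocin, so each clone title stands for 1 clone, and the level of miR-204-5p cannot be told apart from other differences between clones. By code, each title group holds 1 library of C-26, 1 of C-20 and 1 of NTC, so each pair of a title and a code occurs once. The labels name no separate cultures within a group, so the p-values measure the spread between these libraries, which may be technical. In a fit by title alone, the spread within a title also holds any difference between codes. In a fit by code alone, the spread within a code also holds any difference between titles. The question the titles imply is whether reported targets stood lower in the clones than in control cells. The authors' deposited comparisons instead group the libraries by code: C-20 over NTC, C-26 over NTC and C-20 over C-26. Only the titles name miR-204-5p, and whether the codes also bear on its level is not stated. The reading of the titles as miR-204-5p status is therefore taken from the labels and was not checked.

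A microRNA is a short RNA that guides an Argonaute protein to messenger RNAs, mostly through pairing between its seed near the 5′ end and sites in the 3′ untranslated region (3′ UTR), and the paired messages are translated less and often degraded sooner. miR-204-5p is made from a gene inside an intron of Trpm3, is best known from retinal pigment epithelium and bone, and has been described as reduced in several carcinomas. Its reported targets take part in cell survival (Bcl2), deacetylation of histones and transcription factors (Sirt1), transcription (Runx2, Meis1, Sox4), chromatin architecture (Hmga2), attachment of the plasma membrane to actin (Ezr) and vesicle traffic (Rab22a, Ap1s2, Ap1s3).

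The mature sequence, from RefSeq (GRCm38.p6, chr19:22750610-22750631, plus strand), is shown with its seed, bases 2 to 8, in capitals, because the sites in the target genes are defined by it.
mmu-miR-204-5p: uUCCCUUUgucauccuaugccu
The same seed is carried by miR-211-5p and miR-7670-3p, so no site below can be assigned to miR-204-5p alone. A full match to the seed followed by an A (8mer) reads AAAGGGAA, a match to all 7 seed bases (7mer-m8) reads AAAGGGA, and a match to bases 2 to 7 of the microRNA followed by an A (7mer-A1) reads AAGGGAA. A shorter match lies inside each longer one, and each place in a 3′ UTR was counted once under its longest match, on the sense strand of the transcript.

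All 10 genes held at least 1 such match in their longest annotated 3′ UTR (GENCODE M21, GRCm38), with 18 matches in all. Among the 10398 tested genes with an annotated 3′ UTR, 23.7% held a 7mer or 8mer and 6.7% an 8mer. The 8mer occurred in Bcl2, Sirt1, Ezr and Hmga2. The other 6 genes held 7mer matches only, although a further transcript of Ap1s2 holds the 8mer. The genes were chosen as reported targets and long 3′ UTRs hold more matches, so these counts describe the members and are no test. Among genes with a 3′ UTR of similar length, where the shorter measures at least 0.8 times the longer, 67.4% held a 7mer or 8mer around the length of Rab22a and 20.7% around that of Ezr.

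The windows of 30 bases shown here, read from the GENCODE transcripts with the match in capitals, are those of the genes called in a comparison below on the values as deposited and of all genes with an 8mer.
Bcl2 8mer: tatttactgccAAAGGGAAatatcatttat
Sirt1 8mer: aatgttaatgtAAAGGGAAcagcttatcta
Ezr 8mer: ttagttttaaaAAAGGGAAagttttgttct
Hmga2 8mer: ttgtttttcaaAAAGGGAAgtaaacgagaa
Ap1s2 7mer-m8: acacactggtgAAAGGGAgttttctaactg
Ap1s2 8mer, other transcript: caattttttttAAAGGGAActttggttaat
Ap1s2 8mer, other transcript: tactttaaatcAAAGGGAAtttagatgctt
Ap1s3 7mer-m8: aaaaactacttAAAGGGAttctgtgttagc
Sox4 7mer-m8: attcacagcaaAAAGGGAttctgtagcttt
Runx2 7mer-m8: ggtgcactcagAAAGGGAcaagaggcagag
The Bcl2 window lies at chr1:106543042-106543071 on the minus strand, with the match starting at base 204 of a 3′ UTR of 5086 bases. The Sirt1 window lies at chr10:63320293-63320322 on the minus strand, with the match starting at base 325 of a 3′ UTR of 1631 bases, the only 7mer or 8mer found there. The Ezr window is at chr17:6738653-6738682 (minus strand) and the Hmga2 window at chr10:120363553-120363582 (minus strand). For Ap1s2, the longest 3′ UTR, of 2587 bases, holds the 7mer at chrX:163927708-163927737 (plus strand), whereas the 8mers at chrX:163932321-163932350 and chrX:163932664-163932693 belong to another transcript with a 3′ UTR of 1179 bases. The deposited values do not separate these transcripts of Ap1s2. The Ap1s3 window, the first of 2 matches (the other is a 7mer-A1), is at chr1:79609038-79609067, the Sox4 window at chr13:28949575-28949604 and the first of 3 Runx2 matches at chr17:44607479-44607508, all on the minus strand. Meis1 held 3 matches and Rab22a held 4, each 1 7mer-m8 and otherwise 7mer-A1, and the fourth match of Rab22a lies beyond the end of the gene in RefSeq. For Sirt1, Meis1 and Hmga2 the transcript with the longest 3′ UTR was not among the RefSeq transcripts that the deposited table lists for the gene.

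**Figure D1:**
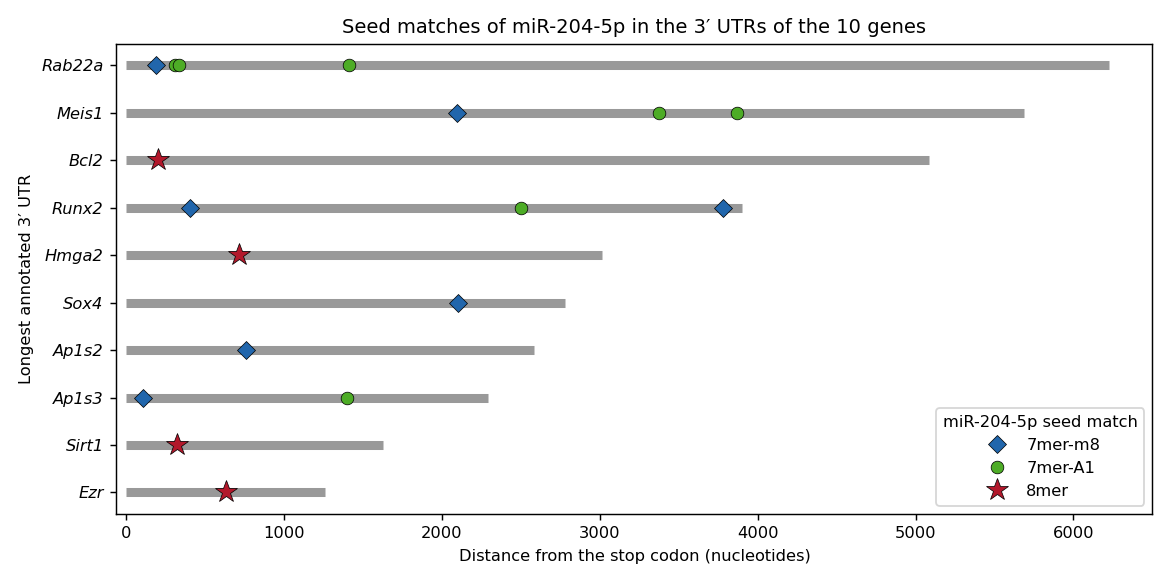
Each grey bar is the longest annotated 3′ UTR of 1 gene, drawn to scale in nucleotides from the stop codon, and the symbols mark 8mer (stars), 7mer-m8 (diamonds) and 7mer-A1 (circles) matches to the miR-204-5p seed. The 4 genes with an 8mer have 1 match each, and Rab22a, with the longest 3′ UTR (6224 nucleotides), has 4.

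The libraries of 1 title resembled each other more than those of 1 code: pairs of libraries correlated at a median of 0.975 where they shared the title, 0.943 where they shared the code and 0.936 where they shared neither (Pearson, log2(FPKM + 1)). FPKM are fragment numbers normalized for transcript length and for the number of mapped fragments, so levels can be set side by side between genes. The absolute depth is unknown because no fragment counts were used here, and the relative depth, read from the steps between low FPKM values, lay between 0.884 and 1.17 times the mean library. The precursor gene Mir204 was listed at 0 in all 9 libraries, and mature microRNAs are largely lost in a selection of polyadenylated RNA, so the overexpression itself was not checked by these data. All 5 epithelial markers passed the expression filter, with a summed level of 1156 to 1535 FPKM in clone 3, 820 to 1330 in clone 2 and 340 to 1134 in control. No leukocyte or endothelial marker passed (0 of 3 each), Cd3e was at 0 in every library, and 1 of 4 fibroblast markers, Pdgfra, passed. What these differences contribute to the levels below was not tested. In bulk RNA, fewer cells that express a gene and less RNA per cell cannot be told apart.

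All 10 genes were expressed in every library, from 1.88 FPKM for Meis1 in the NTC library of control to 120 FPKM for Ezr in the C-26 library of clone 3, and all 10 passed the filter of 1 FPKM or more in at least 3 libraries that left 10783 genes to test. By mean level over the 9 libraries the order was Ezr (91.5 FPKM), Hmga2 (86.2), Sox4 (34.3), Rab22a (18.2), Ap1s2 (11.6), Sirt1 (11.3), Ap1s3 (11.3), Runx2 (9.56), Bcl2 (4.45) and Meis1 (3.27). Neighbours in this order overlapped in their ranges over the libraries, with 2 exceptions: the lowest value of Hmga2, 63.1 FPKM, exceeded the highest of Sox4, 61.0, and the lowest of Runx2, 6.39, exceeded the highest of Bcl2, 6.13. Sirt1 varied most, with a highest value 6.28 times its lowest, and Rab22a least, at 1.35 times. Ezr and Hmga2 lay above 93.0% and 92.6% of all tested genes in mean level, while Bcl2 and Meis1 lay above 21.6% and 15.7%.

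**Figure D2:**
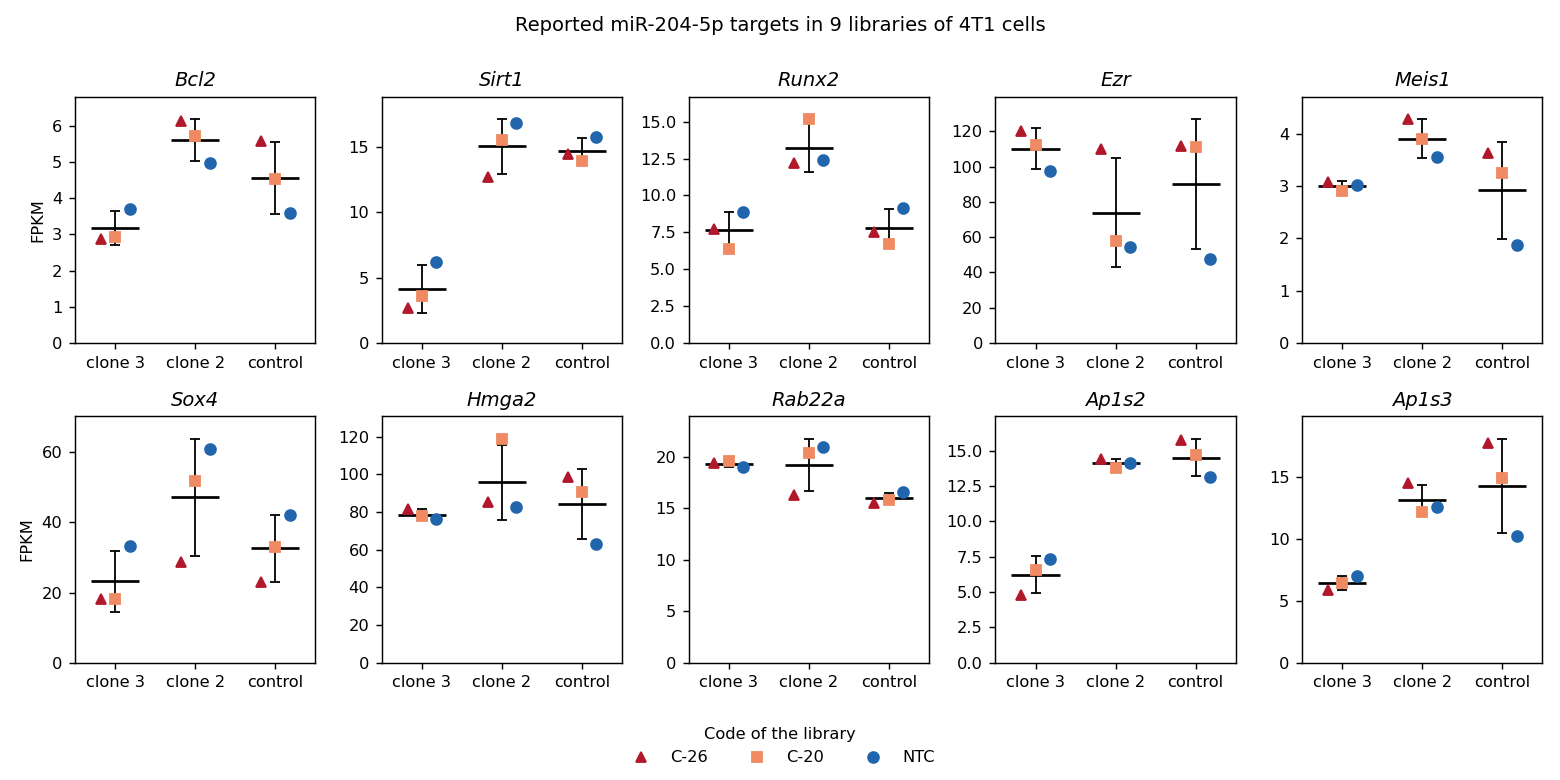
FPKM of each of the 10 genes (1 panel per gene, each with its own axis from 0) in the 3 libraries of clone 3, clone 2 and control, with the code of each library shown by symbol. Horizontal lines are means and bars the SD of 3 libraries. The clone 3 libraries of Sirt1 (2.68 to 6.19 FPKM), Ap1s2 (4.82 to 7.37) and Ap1s3 (5.90 to 6.97) lie below all 6 others.

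Sirt1, the NAD-dependent deacetylase, and the AP-1 adaptor subunits Ap1s2 and Ap1s3 were lower in clone 3 than in control, and the other 7 genes did not pass. This made 3 of 10 genes lower and 0 higher, against 13.2% lower and 7.44% higher, or 20.6% in all, among all 10783 tested genes (limma, Benjamini-Hochberg adjusted p below 0.05 over all tested genes; 1418 lower and 802 higher, or 1649 and 534 after scaling the libraries by median ratios). The median log2 change was −0.24 over the 10 genes and 0.09 over all tested genes. A log2 change here is a difference of mean log2(FPKM + 1), which understates the change of weakly expressed genes. Of the 10 genes, 7 had a negative log2 change, or 6 with quantile normalization and 8 with median ratio scaling.

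In the order C-26, C-20 and NTC, Sirt1 (Entrez Gene 93759, chromosome 10, 63319005 to 63339035) was at 2.68, 3.56 and 6.19 FPKM in clone 3, against 14.4, 14.0 and 15.8 in control. Every clone 3 library lay below every control library, and the mean was 0.281 times that of control. The difference was −1.67 ± 0.24 on the log2 scale (SE, n = 3 each), with a limma adjusted p of 0.00108. Sirt1 removes acetyl groups from histones and from proteins such as p53, and it holds an 8mer. The call held without each of the 9 libraries in turn and with transcript length and GC content corrected (−1.23, adjusted p = 0.00459).

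Ap1s2 and Ap1s3 encode alternative sigma subunits of AP-1, the clathrin adaptor that sorts cargo between the trans-Golgi network and endosomes. Ap1s2 (Entrez Gene 108012, chromosome X, 163908454 to 163933666) was at 4.82, 6.54 and 7.37 FPKM in the C-26, C-20 and NTC libraries of clone 3 and at 15.8, 14.7 and 13.1 in those of control. The groups were far apart, with a log2 change of −1.11 ± 0.17 (SE, n = 3 each; limma adjusted p = 0.00171). Ap1s3 (Entrez Gene 252903, chromosome 1, 79606869 to 79672018) was at 5.90, 6.41 and 6.97 FPKM in clone 3 and at 17.7, 14.9 and 10.2 in control. Its control libraries were spread more widely than its clone 3 libraries but did not overlap them, and the change was −1.01 ± 0.20 (limma adjusted p = 0.00651). Neither call survived the length and GC correction: the change of Ap1s3 was 0.06 (adjusted p = 0.876) and that of Ap1s2 turned to 0.74 and was called higher (adjusted p = 0.00769).

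The remaining genes differed from control by less than the test could call. Bcl2, the inhibitor of apoptosis, was at 2.88, 2.94 and 3.72 FPKM in the C-26, C-20 and NTC libraries of clone 3, against 5.58, 4.54 and 3.58 in control, so the groups overlapped through their NTC libraries (log2 −0.40 ± 0.18, limma adjusted p = 0.137; −0.54 and 0.0451 without control replicate 1). Sox4, a transcription factor of progenitor cells and tumours, was at 18.1, 18.1 and 33.2 FPKM in clone 3 and at 22.9, 32.9 and 42.0 in control. Within each code its clone 3 library was the lower one, but the ranges overlapped (log2 −0.49 ± 0.33, adjusted p = 0.314). Rab22a, a GTPase of endosomes, was at 19.4, 19.6 and 19.0 FPKM in clone 3 against 15.5, 15.8 and 16.6 in control. Its groups did not overlap, with clone 3 the higher, but the change of 0.26 ± 0.15 did not pass (adjusted p = 0.229). Groups without overlap were found for 18.8% of all tested genes with clone 3 lower, which included Sirt1, Ap1s2 and Ap1s3, and for 21.9% with clone 3 higher. Runx2 (−0.02), Meis1 (0.06), Hmga2 (−0.07) and Ezr (0.38) had adjusted p-values from 0.464 to 0.945 and overlapping groups.

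Against clone 2, clone 3 was lower in 5 of the 10 genes and higher in 0, where 12.8% of all tested genes were lower and 6.03% higher. These were Sirt1, Ap1s2 and Ap1s3 again, joined by Runx2 and Bcl2. This comparison and the one with control share the clone 3 libraries, so its values are not independent of those above. The median log2 change was −0.69 over the 10 genes and 0.04 over all tested genes. In 7 of the 10 genes, namely the 5 above with Meis1 and Hmga2, all clone 3 libraries lay below all clone 2 libraries, which was so for 21.2% of all tested genes. None of the 10 had them all above, against 23.7% of all tested genes.

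Sirt1 was at 2.68, 3.56 and 6.19 FPKM in the C-26, C-20 and NTC libraries of clone 3, against 12.7, 15.6 and 16.8 in clone 2 (log2 −1.69 ± 0.24, limma adjusted p = 0.00114). The clone 2 values of Ap1s2 were 14.4, 13.8 and 14.1 FPKM, and those of Ap1s3 were 14.5, 12.2 and 12.6. Both genes were lower in each clone 3 library, with log2 changes of −1.08 ± 0.17 (adjusted p = 0.0023) for Ap1s2 and −0.92 ± 0.20 (0.0113) for Ap1s3. Ap1s3 lost its call without clone 3 replicate 3 (0.0558). With length and GC corrected, Sirt1 kept its call (−1.23, 0.00518), Ap1s3 stood at 0.06 (0.88) and Ap1s2 turned to 0.63 and was called higher (0.0166).

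Runx2, the transcription factor that directs osteoblast formation, was at 7.74, 6.39 and 8.86 FPKM in the C-26, C-20 and NTC libraries of clone 3 and at 12.2, 15.2 and 12.4 in clone 2, with 7.51, 6.70 and 9.17 in control. Clone 3 and control thus lay in 1 range, and clone 2 above both. The change between the clones was −0.72 ± 0.18 (SE, n = 3 each; limma adjusted p = 0.0214). It lost its call without clone 2 replicate 2 (0.107), clone 3 replicate 2 (0.0999) and clone 3 replicate 3 (0.0725), with quantile normalization (0.0608) and with length and GC corrected (−0.45, 0.117), but not where the longest transcript gave the correction (−0.65, 0.0415). Clone 2 exceeded control by 0.70 on the log2 scale with no overlap, and this did not pass either (adjusted p = 0.333).

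Bcl2 was at 2.88, 2.94 and 3.72 FPKM in clone 3 and at 6.13, 5.71 and 4.97 in clone 2, again without overlap (log2 −0.66 ± 0.18, limma adjusted p = 0.0299). The call was lost without clone 2 replicate 1, 2 or 3 (0.0517, 0.113 and 0.0767), without clone 3 replicate 2 or 3 (0.116 each), with no expression filter (0.0712), with quantile normalization (0.0539) and with length and GC corrected (−0.29, 0.243). Sox4 stood at 28.7, 51.8 and 61.0 FPKM in clone 2, and the clone 3 library was the lower in each code, at 18.1, 18.1 and 33.2. Its change of −0.99 ± 0.33 did not pass (adjusted p = 0.0647). It passed without control replicate 1 (0.0363), clone 2 replicate 3 (0.0242) or clone 3 replicate 1 (0.0314), and in a fit of only the clones compared (0.0472). With the code as a further term of the fit (block) Sox4 was called lower too, but the code was not taken as a pairing. Hmga2, a chromatin protein with AT-hooks, was at 81.8, 78.1 and 76.0 FPKM in clone 3 and at 85.4, 119 and 82.9 in clone 2 (log2 −0.26, 0.393). Meis1, a homeodomain partner of Hox proteins, was at 3.07, 2.90 and 3.03 FPKM in clone 3 and at 4.28, 3.89 and 3.54 in clone 2 (log2 −0.29, 0.312). Ezr (0.64, 0.224) and Rab22a (0.02, 0.952) overlapped between the clones.

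None of the 10 genes was called in clone 2 against control, and limma called 0 of all 10783 tested genes, or 0.0%, although 949 had an unadjusted p below 0.05. For Sirt1 the clone 2 values of 12.7, 15.6 and 16.8 FPKM lay around the control values of 14.4, 14.0 and 15.8 (log2 0.02 ± 0.24). Ap1s2 (−0.03) and Ap1s3 (−0.09) were also near 0, each with a SE of 0.17 to 0.20. The log2 changes ran from −0.26 for Ezr to 0.70 for Runx2, and 3 of the 10 were negative, or 4 with quantile normalization or median ratio scaling. The median was 0.22, against 0.02 over all tested genes. Runx2 was the only gene of the 10 whose groups did not overlap, and clone 2 lay wholly above control in 7.66% and wholly below it in 6.11% of all tested genes.

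**Figure D3:**
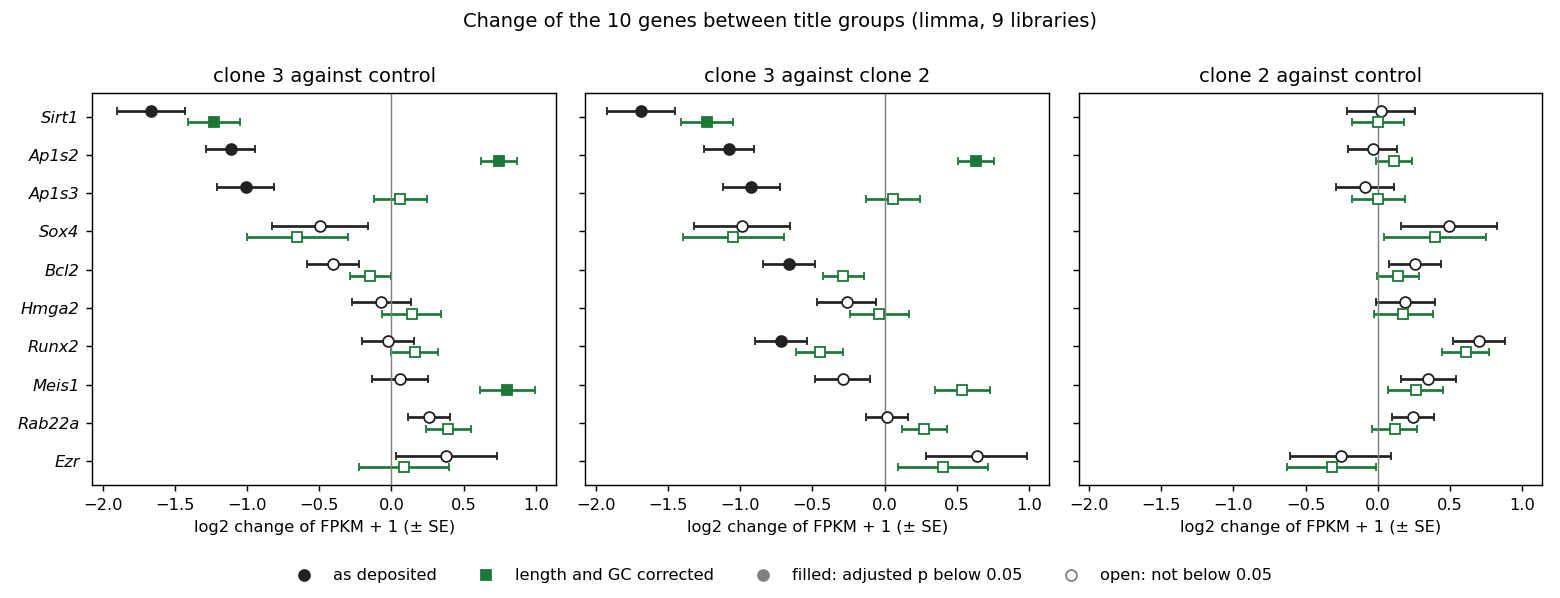
log2 change of FPKM + 1 with its SE (horizontal axis) for each gene in the 3 comparisons of titles, from limma over 9 libraries, as deposited (black circles) and with transcript length and GC content corrected (green squares); filled symbols have an adjusted p below 0.05. With the correction Sirt1 remains lower in clone 3 (−1.23 against control), Ap1s2 lies at 0.74 and Ap1s3 at 0.06.

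Across all genes, the changes in clone 3 ran with the GC content of the transcripts. When the 10398 tested genes with an annotated 3′ UTR were divided into 5 equal groups by GC content, the lowest group (32.6% to 44.2% GC) had a median log2 change of −0.73 in clone 3 against control, with 51.7% of its genes called lower. This group holds Sirt1, Meis1, Ap1s2 and Ap1s3. The next group, up to 48.2% GC, with Bcl2, Runx2, Hmga2 and Rab22a, had a median of −0.11 and 10.4% called lower. The middle group, with Sox4, had a median of 0.14, the one above it, with Ezr, 0.33, and the highest, with none of the 10, 0.41 and 18.5% called higher. Against clone 2 the lowest group stood at −0.72 with 49.6% called lower. Between clone 2 and control the medians of the 5 groups ran from −0.03 to 0.09. By code they rose with GC content from −0.16 to 0.14 in C-26 against NTC and from −0.14 to 0.17 in C-20 against NTC.

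Set against the genes of their GC group, the 10 genes spread widely. The groups are broad: Sirt1 lies near the upper edge of the lowest one (1979 tested genes lower in GC) and Ap1s2 near its lower edge. Their ranks are therefore not ranks among genes of like GC content. In clone 3 against control, 13.1% of the genes in its GC group had a lower log2 change than Sirt1 (44.0% GC), 30.4% than Ap1s2 (35.4% GC, with 19 tested genes lower in GC) and 34.8% than Ap1s3 (39.5% GC). Meis1 (42.4% GC), at 0.06, lay above 93.0% of its group. Sox4 (51.1% GC), at −0.49, lay below most of its own, with 4.33% lower, and Bcl2 (46.3% GC) had 24.2% lower. After the correction Meis1 was called higher in clone 3 than in control (0.80, limma adjusted p = 0.0327). Sox4 stood at −0.65 (0.302). The corrected value of Ap1s2 rests on few genes of its GC content and on the transcript chosen: with the longest transcript of each gene in place of the one with the longest 3′ UTR, an alternative added after the values were seen, it was 0.45 against control (0.0519) and 0.34 against clone 2 (0.122), and neither passed. The cause of the relation with GC content was not tested.

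**Figure D4:**
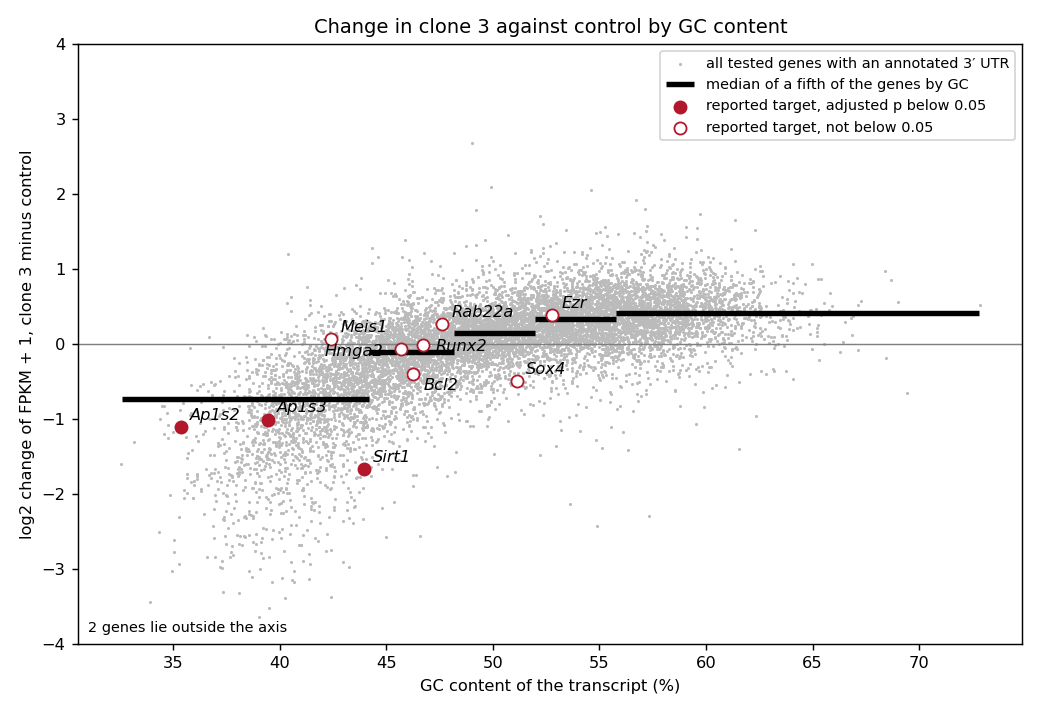
log2 change of FPKM + 1 in clone 3 minus control (vertical axis) against GC content of the transcript in percent (horizontal axis) for the tested genes with an annotated 3′ UTR (grey), with the medians of 5 equal groups by GC content (black bars) and the 10 genes in red, filled where the adjusted p is below 0.05. The medians run from −0.73 in the lowest to 0.41 in the highest group, and Sirt1 lies at −1.67.

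By code, none of the 10 genes was called in C-26 against NTC or in C-20 against NTC. Of all tested genes 0.139% and 0.0185% were called (15 and 2 genes, with 1794 and 834 at an unadjusted p below 0.05). The calls in C-26 were 0.121% of all tested genes as higher and 0.0185% as lower. In the authors' deposited table, which compares the codes, no gene passed either: the lowest adjusted p-value of any gene was 0.189 for C-26 over NTC and 0.911 for C-20 over NTC. The median log2 change of the 10 genes was 0.04 in C-26 and 0.03 in C-20, against −0.01 over all tested genes in both.

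Libraries of 1 title deviated together from the means of their codes in all 9 pairs, and with the title as a block 2 of the 10 genes passed in C-26 against NTC, Sox4 as lower and Ezr as higher, where 7.36% of all tested genes were lower and 6.75% higher. In the order clone 3, clone 2 and control, Sox4 was at 18.1, 28.7 and 22.9 FPKM in C-26 and at 33.2, 61.0 and 42.0 in NTC. The C-26 library was the lower in each title, with log2 differences of −0.85, −1.06 and −0.85, and the groups did not overlap, as for 12.4% of all tested genes. The blocked change was −0.92 ± 0.18 (SE, n = 3 each; limma adjusted p = 0.0153, against 0.265 without the block). It lost its call without control replicate 3 (0.0553), clone 2 replicate 1 (0.0617) or clone 2 replicate 3 (0.141).

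Ezr encodes ezrin, which links the plasma membrane to cortical actin, and holds an 8mer. In the same order it was at 120, 110 and 112 FPKM in C-26 and at 97.8, 54.6 and 47.7 in NTC. C-26 was the higher in every title, by 0.30, 1.00 and 1.21 on the log2 scale, least in clone 3, and the groups did not overlap, as for 10.8% of all tested genes. The blocked change was 0.84 ± 0.24 (limma adjusted p = 0.0429, against 0.247 without the block). It lost its call without control replicate 1 (0.104) or 3 (0.131), clone 2 replicate 1 (0.104) or 3 (0.251), or clone 3 replicate 2 (0.0786). In the authors' deposited table the signed fold of C-26 over NTC was −1.80 for Sox4 (raw p-value 0.0603) and 1.92 for Ezr (0.0773).

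The C-20 libraries placed Ezr differently by title. It was at 112, 57.5 and 111 FPKM in C-20, in the order clone 3, clone 2 and control, so the control library was near its C-26 value and the clone 2 library near its NTC value. Sox4 was at 18.1, 51.8 and 32.9 FPKM in C-20, between C-26 and NTC in clone 2 and control. With the block, limma called 0 of the 10 genes in C-20 against NTC and 0.306% of all tested genes, 0.13% as lower and 0.176% as higher (33 genes, with 2259 at an unadjusted p below 0.05). All 10 genes had overlapping C-20 and NTC groups, while 6.15% of all tested genes lay wholly lower and 4.7% wholly higher in C-20. Sox4 and Sirt1 were lower in C-20 in all 3 titles, as were 22.6% of all tested genes, and Ezr and Hmga2 were higher in all 3, as were 18.9%. For Ezr the blocked change was 0.49 (adjusted p = 0.264) and for Sox4 −0.47 (0.171).

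**Figure D5:**
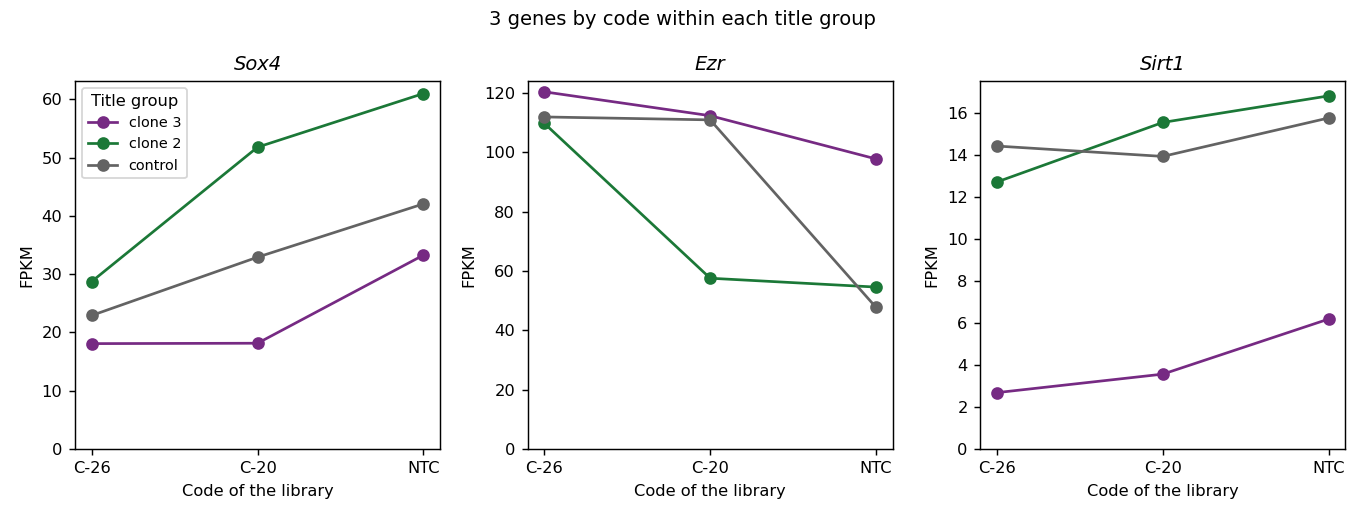
FPKM (vertical axis, from 0) of Sox4, Ezr and Sirt1 in the C-26, C-20 and NTC libraries, with 1 line for each title group. In C-26 Sox4 is lower and Ezr higher than in NTC in all 3 titles, and for Sirt1 the clone 3 line (2.68 to 6.19 FPKM) lies below the others at every code.

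Of the other 8 genes, Sirt1 and Runx2 were lower in C-26 than in NTC in all 3 titles and Meis1 and Hmga2 higher in all 3, which with Sox4 and Ezr made 3 genes each way. Of all tested genes 27.7% were lower and 24.8% higher in all 3 titles. Sirt1 differed by −0.97 in clone 3, −0.38 in clone 2 and −0.12 in control on the log2 scale, and its blocked change of −0.49 ± 0.18 did not pass (limma adjusted p = 0.0995). Hmga2 (0.26), Meis1 (0.31) and Runx2 (−0.15) did not pass either, and Rab22a, Bcl2, Ap1s2 and Ap1s3 went in different directions in different titles. For Ap1s3 the log2 difference between the C-26 and NTC libraries was −0.21 in clone 3 and 0.74 in control.

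Over the 9 libraries, as a description of points that share titles and codes, the levels of Sirt1 and Ap1s2 had a Pearson correlation of 0.97 and those of Ap1s2 and Ap1s3 of 0.95 on the log2(FPKM + 1) scale. These were the only 2 of the 45 pairs above 0.9, and the lowest was that of Ezr and Sox4, at −0.85. Among the 10782 other tested genes, the one most like Sirt1 was Cul5 (r = 0.998 over 9 libraries), the one most like Ap1s2 was Cops2 (0.999) and the one most like Ap1s3 was Lrrcc1 (0.996). Their transcripts have 39.0%, 37.3% and 38.4% GC, in the lowest GC group. Cul5, a cullin, was at 2.07, 2.64 and 4.25 FPKM in the C-26, C-20 and NTC libraries of clone 3, 9.18, 10.3 and 12.7 in those of clone 2 and 10.3, 9.48 and 11.2 in those of control. The nearest genes of the others were Cpt2 for Ezr (0.990), Qtrt1 for Rab22a (0.993), Fndc3a for Bcl2 (0.985), Cdk14 for Meis1 (0.981), Pkd2l2 for Sox4 (0.971), Kdm5b for Runx2 (0.969) and Gmcl1 for Hmga2 (0.911).

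A further 22 reported targets were listed, of which 18 were expressed enough to test. In clone 3 against control 4 of the 18 were lower and 0 higher, where 13.2% of all tested genes were lower and 7.44% higher, and the median log2 change was −0.10, against 0.09 over all tested genes. Creb1, the cyclic AMP-responsive transcription factor, was at 2.42, 2.87 and 5.47 FPKM in the C-26, C-20 and NTC libraries of clone 3, against 13.3, 11.4 and 17.9 in control (log2 −1.76, limma adjusted p = 0.00191). Tgfbr1, a TGF-beta receptor kinase, was at 2.86, 2.92 and 5.18 FPKM in clone 3 and at 12.1, 9.76 and 11.1 in control (−1.40, 0.0019). Clone 3 lay below control in every library of both genes. Atf2, a basic leucine zipper factor (−0.64), and Meis2, a relative of Meis1 (−0.50), were also lower. In their longest 3′ UTRs Creb1 and Atf2 held an 8mer, Meis2 held a 7mer only and Tgfbr1 held neither. Creb1 (39.6% GC), Tgfbr1 (41.0%) and Atf2 (38.6%) belong to the lowest GC group. With length and GC corrected, Creb1 (−0.55, 0.151) and Tgfbr1 (−0.47, 0.103) lost their calls, Atf2 turned to 0.60 and was called higher (0.0376), and Meis2 kept its call (−0.45, 0.046).

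Against clone 2, Creb1 (−2.03), Tgfbr1 (−1.27), Atf2 (−0.80) and the deubiquitinase gene Usp47 (−0.78) were lower in clone 3, and none of the 18 was higher. Among all tested genes 12.8% were lower and 6.03% higher. Usp47 held no 7mer or 8mer in its longest 3′ UTR. None of the 18 was called in clone 2 against control or, without a block, by code. Called shares of the 10783 genes were 0.0% in clone 2 against control, 0.0185% in C-20 against NTC and 0.139% in C-26 against NTC. With the title as block, C-26 was higher than NTC in Tgfbr2 (0.77), the other receptor kinase of TGF-beta, and lower in Creb1 (−0.65) and in Bcl2l2 (−0.60), an anti-apoptotic relative of Bcl2. These blocked calls remained with length and GC corrected, at 0.75, −0.49 and −0.72. Before that correction the blocked fit called 6.75% of the 10783 genes as higher in C-26 and 7.36% as lower. After it, the shares were 9.58% and 9.08% of 10398 genes.

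Of 25 paralogs and partners of the 10 genes, 22 were tested. In clone 3 against control, 3 of the 22 were higher and 1 lower, against 7.44% higher and 13.2% lower among all tested genes. The 3 higher genes are further subunits of the AP-1 adaptor. Ap1s1, the sigma paralog, stood at 97.5, 139 and 111 FPKM in the C-26, C-20 and NTC libraries of clone 3, against 67.4, 85.2 and 80.5 in control, and was called higher (log2 0.56, limma adjusted p = 0.0455). Ap1b1 (0.62, 0.041) and Ap1m1 (0.60, 0.0499) were higher too. In their longest 3′ UTRs Ap1s1 held an 8mer and a 7mer, and Ap1b1 and Ap1m1 held neither. Ap1g1, another subunit, did not pass (−0.06, 0.802), and Ap1m2, at no more than 0.0772 FPKM in any library, was not tested. The transcripts of the 3 higher genes have 55.9%, 54.7% and 55.6% GC, and with length and GC corrected Ap1s1 (0.16), Ap1b1 (0.31) and Ap1m1 (0.20) were no longer called. Rab5a, an early endosome GTPase related to Rab22a, was lower in clone 3 than in control (−1.24, 0.0114) and clone 2 (−1.07). It has 42.3% GC, and its calls were lost with the correction (−0.63 and −0.53). Runx1 was lower in clone 3 than in clone 2 (−0.78, 0.0129), where Ap1s1 was higher (0.62). Of all tested genes 12.8% were lower and 6.03% higher between the clones. With the title as block, Hmga1 (−0.73) and Rab5a (−0.68) were lower in C-26 than in NTC, as were 7.36% of all tested genes.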

How the data were processed

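Polyadenylated RNA of 4T1 cells was sequenced as paired reads, per the labels' protocols. Per the submitters' processing notes, TopHat2 2.0.13, Bowtie2 2.2.3 and Cufflinks 2.2.1 were used with mm10. The authors' deposited gene table gives FPKM for 24067 genes and 9 libraries. The deposited comparison table of 13414 genes adds log2(FPKM + 1) values, quantile-normalized by the authors and recomputed here to within 5.0e-09. It also gives the authors' signed folds, which are a score without a fixed range, with raw and adjusted p-values.

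The 10 genes and all gene lists were chosen with earlier results of these data known. A gene was tested if at least 3 libraries reached 1 FPKM (10783 genes), on log2(FPKM + 1) with limma 3.58.1 and a mean-variance trend in R 4.3.3. All 9 libraries entered 1 fit by title and 1 by code. Adjusted p-values (Benjamini-Hochberg, over every tested gene) below 0.05 were called. Named genes are the 10, the called genes of the other lists (at most 4 of each list and comparison by size of change), and for each of the 10 the tested gene with the highest correlation. Annotation was that of GENCODE M21, for the transcript with the longest 3′ UTR. In the length and GC correction, each library's deviation from the gene mean was fitted with natural splines (4 degrees of freedom) in both, and the fit was subtracted. That transcript was preferred to the longest one after the values of both had been seen. In 9 of 9 pairs of libraries that share a title, deviations from the means of the codes went together (correlation 0.26 to 0.883), so codes were also compared with the title as block. Alternatives were a pseudocount of 0.1, no filter, quantile and median ratio scaling, the authors' normalized values, fits of only the groups compared, the block, the correction, and each library or title clone 3 left out. Figures used Python with matplotlib.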

Additional observations from a re-analysis of the deposited data

Results flagged for a closer look

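In 5 of the 10 genes the change against control differed between clone 3 and clone 2 by a test of the difference itself, which is the limma comparison of clone 3 with clone 2. The change of Sirt1 in clone 3 minus that in clone 2 was −1.69 on the log2 scale, that of Ap1s2 −1.08, that of Ap1s3 −0.92, that of Runx2 −0.72 and that of Bcl2 −0.66. The log2 change against control was −0.02 in clone 3 and 0.70 in clone 2 for Runx2, and −0.40 in clone 3 and 0.26 in clone 2 for Bcl2, and none of these passed. Of all tested genes 18.8% differed between the clones in the same test.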

How the results depend on the processing

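Of the log2 changes of the 10 genes in 5 comparisons, those that were called for Sirt1 held under every alternative run. With length and GC corrected, Ap1s2 turned to 0.74 in clone 3 against control and 0.63 against clone 2, and Ap1s3 to 0.062 and 0.059, with and without a replicate block. With the longest transcript per gene, an alternative chosen after seeing the data, Ap1s2 was at 0.45 and 0.34. With correction and block together 2 of the 10 genes were lower and 2 higher in clone 3 than in control, and the same numbers against clone 2. Of all genes tested there 8.42% were lower and 6.99% higher against control, and 8.9% and 9.17% against clone 2. In that setting Meis1 was called higher in clone 3 than in clone 2 (0.54). The cause was not tested. The number of the 10 genes called in clone 3 against clone 2 was 5 as reported, beside 18.8% of all tested genes. It was 3 with quantile normalization (18.9% of all tested genes), 4 with the authors' normalized values (19.3%) and 4 with no filter (7.59%). It was 6 with only the groups compared (26.7%) or the code as block (29.5%). With the correction it was 2 (8.75%), and with the longest transcript also 2 (9.99%). In C-26 against NTC it was 0 as reported (0.139%) and 2 with the title as block (14.1%). With that block and the correction it was 3 (18.7%), 1 lower and 2 higher. Deviations from the title means went together in the NTC pairs (correlation 0.481 to 0.548) and the C-26 pairs (0.266 to 0.562). They did not do so in every C-20 pair (−0.235 to 0.207), so the code was not taken as a pairing. By these deviations, 7 of 9 libraries correlated best, among the libraries of other titles, with one of their own code. With the code as block 1 call was added among the 10 genes in the comparisons of titles, Sox4 in clone 3 against clone 2 (adjusted p = 0.00294), where 17.3% of all tested genes were lower. With that block 6 of the 18 other tested targets were lower and 1, Tgfbr2, higher in clone 3 than in control. Of all tested genes 16.7% were lower and 14.2% higher there.

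Counts over all tested genes moved as follows. In clone 2 against control, 0 became 1 with only the groups compared, 3 with the block and 25 with block and correction. In clone 3 against control, 2220 became 3330 with the block (1534 higher and 1796 lower), 867 with the correction and 1043 with the longest transcript. In clone 3 against clone 2, 2030 became 3176 with the block, 910 with the correction and 1039 with the longest transcript; 462 higher and 1542 lower genes with median ratio scaling stand beside 650 and 1380. In C-20 against NTC, 2 became 1 with a pseudocount of 0.1, 4 with no filter, 0 with only the groups compared, 33 with the block, 128 with block and correction and 0 without title clone 3. In C-26 against NTC, 15 became 27 with no filter, 2 with only the groups compared, 1522 with the block, 131 with the correction, 1940 with block and correction, 98 with the longest transcript and 4 without title clone 3.

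Leaving out each library in turn, 3 to 4 of the 10 genes were called in clone 3 against control and 2 to 6 in clone 3 against clone 2; 0 were called in clone 2 against control and, without the block, in either comparison of codes. With the block 0 to 2 were called in C-26 against NTC and 0 in C-20. Over all tested genes the counts were 0 to 13 in clone 2 against control, 1011 to 2707 in clone 3 against control, 835 to 3443 in clone 3 against clone 2, 0 to 2 in C-20 and 2 to 19 in C-26, and with the block 1 to 111 in C-20 and 21 to 1809 in C-26. The count in clone 3 against control fell to 1364 without control replicate 3, 1057 without clone 3 replicate 2 and 1011 without clone 3 replicate 3. In clone 3 against clone 2 it was 3443 without control replicate 1, 1181 without clone 2 replicate 1, 865 without clone 2 replicate 2 and 835 without either clone 3 replicate 2 or 3. In the blocked C-26 comparison the count of 1522 was 309 when control replicate 3 was left out, 190 for clone 2 replicate 1, 21 for clone 2 replicate 3, 545 for clone 3 replicate 2 and 983 for clone 3 replicate 3. Without fragment counts, counting error of single values is unknown.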
